A study of Mus musculus with 2 samples.

Results

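The Rab GTPases are the largest branch of the Ras superfamily of small GTP-binding proteins, and each directs a step of membrane traffic. A Rab carries lipid groups at its end, is loaded with GTP on its target membrane by an exchange factor, then recruits effectors such as tethers and motors, and is switched off by a GTPase-activating protein before a chaperone returns it to the cytosol. In macrophages they are known for phagosome maturation and secretion of lysosome contents, and in fibroblasts for matrix secretion, integrin recycling and the primary cilium. The members were all genes whose symbol is Rab followed by a number and at most 1 letter, chosen by name alone. There were 59 such genes on 60 rows, of 34295 genes in all.

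Their levels were compared between 1 library of wild-type embryonic fibroblasts and 1 of wild-type bone marrow derived macrophages, both C57BL/6J. The fibroblasts were grown from E13.5-E14.4 embryos without head and red tissue, sorted to be free of cells with CD45, CD11b or F4/80, and used at passage 4 to 7 in DMEM with 10% serum, from 100000 cells. The macrophages were differentiated for 6 days in RPMI with 10% serum and 30% conditioned medium of L929 cells, the source of the growth factor CSF1 in such cultures, and plated at 750000 cells. The stated aim of the series concerns growth factors and the receptors for them.

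Values are transcripts per 1000000 (TPM), which are scaled by transcript length, so that levels of different genes can be set side by side within a library. The library totals were 999545 for fibroblasts and 999609 for macrophages, and the read depth behind them is unknown. With 1 library in each group there is no replicate error and no test, and cell type cannot be told apart from medium, cell number or preparation. A gene is counted as higher in a library where its log2 ratio of TPM plus 1 (fibroblasts over macrophages) reached 2, which is 4-fold, and its level there was 5 TPM or more. Folds in the text are ratios of TPM without the added 1. The marker genes matched the labels: by the same rule the macrophage library was higher for 12 of 12 macrophage genes and the fibroblast library for 12 of 12 fibroblast genes. Their summed levels were 17884 against 39.2 TPM and 8041 against 13.7 TPM. By the same rule 5 of 8 neutrophil markers were also higher in the macrophage library, where the 8 summed to 496 TPM. Mpo and Elane stood there at 2.83 and 2.34 TPM, against 0.0802 and 0 in fibroblasts, and did not pass the rule. Ly6g, which defines mature neutrophils, was listed at 0 in both. In such bulk libraries, fewer cells of a type and less RNA per cell cannot be told apart.

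Most of the expressed Rab genes differed by less than 2-fold between the cell types, and a small set was split between them. Of the 59 genes, 52 were detected, with 1 TPM or more in fibroblasts or macrophages, and 42 were expressed, with 5 TPM or more. Of these 42, 5 were higher in fibroblasts (Rab3b, Rab30, Rab34, Rab23 and Rab4a) and 5 in macrophages (Rab7b, Rab19, Rab20, Rab8b and Rab3d). That is 11.9% in each direction. Among all 11191 genes at 5 TPM or more, 14.3% were higher in fibroblasts and 8.77% in macrophages, so the members' shares lay near those of genes at large. The remaining 32 did not reach the limit, and 26 of the 42 differed by less than 2-fold (61.9%, against 61.3% of all expressed genes). The median log2 ratio of the 52 was 0.09, against 0.28 over all 13606 genes at 1 TPM or more. Such medians move with the scaling: median-of-ratios scaling brought that of the members at 1 TPM or more to -0.05. Over all genes at 5 TPM or more, a set with a higher minimum, it lowered the median from 0.26 to 0.07.

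**Figure D1:**
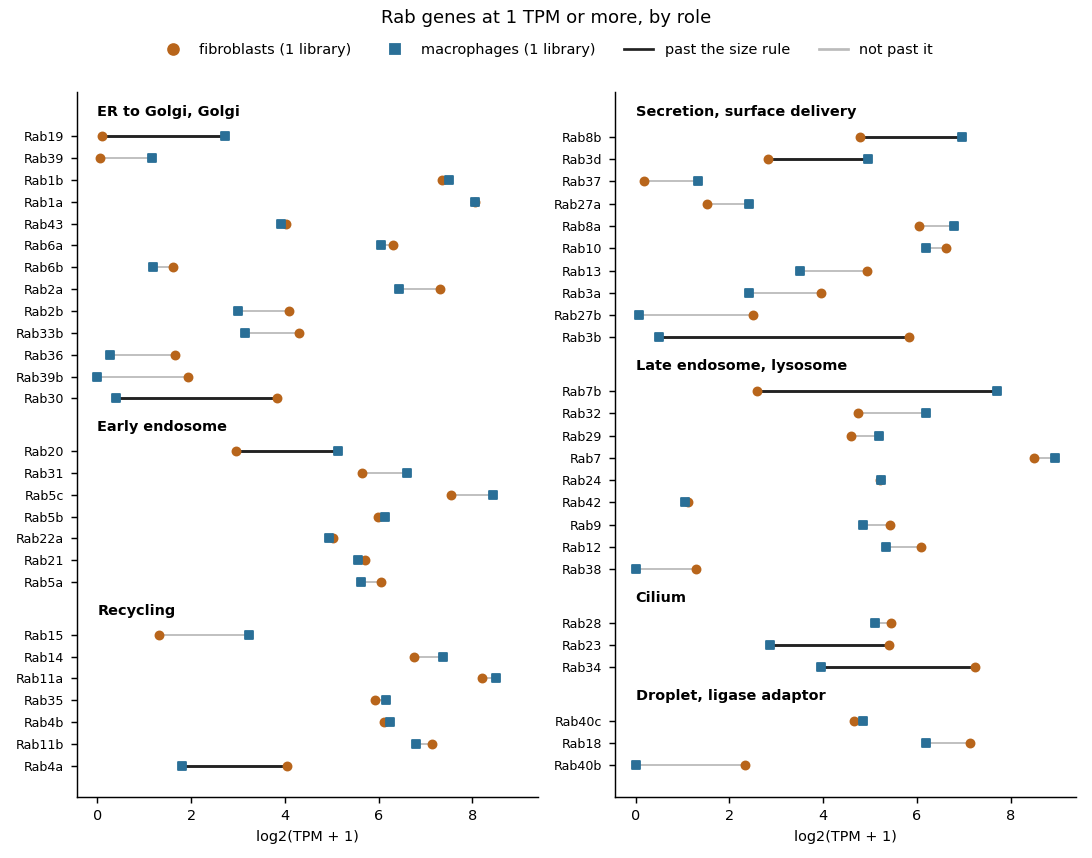
Levels of the 52 Rab genes at 1 TPM or more, as log2 of TPM plus 1, in the fibroblast library (circles) and the macrophage library (squares), grouped by the step of traffic each is known for and ordered by log2 ratio within a group. Dark lines join the 10 genes past the size rule, and the points of Rab1a, the most abundant of the Golgi group, coincide.

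The family made up 0.315% of the fibroblast transcripts, 3148 TPM in sum, and 0.353% of the macrophage transcripts, 3530.0 TPM. Its sum was spread over many members. Rab7 was the highest in both libraries, with 11.5% of the family sum in fibroblasts and 14.1% in macrophages. The 10 highest members held 62.6% and 67.2%, and 7 genes were among the 10 highest of both. Of the 13 members that reached 100 TPM in either library, 7 did so in both. Among the 13, Rab34, Rab7b and Rab8b passed the size rule, as did 581 of all 2145 genes at that level. The other 7 genes past it were at most 55.8 TPM.

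**Figure D2:**
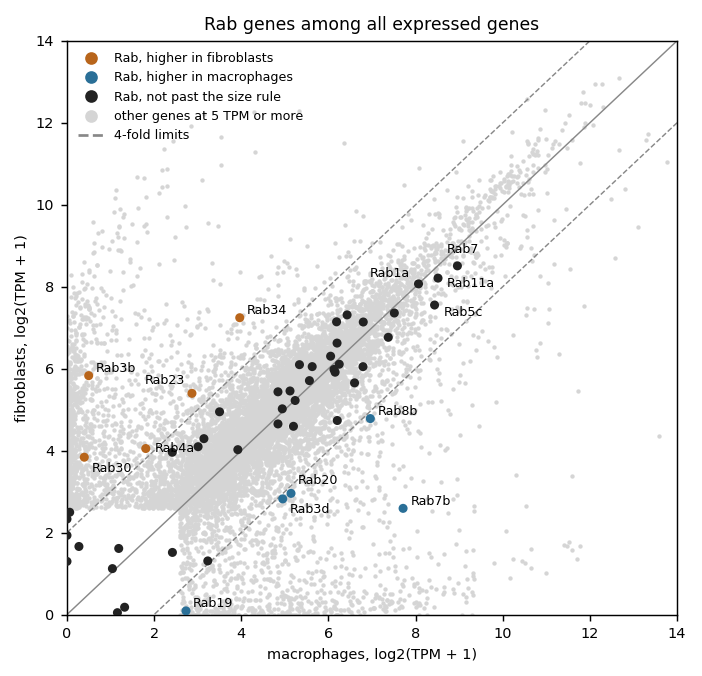
Levels of Rab genes (large points) among all genes at 5 TPM or more in either library (grey), macrophages on the horizontal and fibroblasts on the vertical axis, both as log2 of TPM plus 1. The most abundant members Rab7, Rab11a, Rab1a and Rab5c lie close to the diagonal, and the 10 coloured members lie beyond the dashed 4-fold lines. Rab27b and Rab40b also lie beyond them but are drawn dark, being under 5 TPM.

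The promoters of Rab3b and Rab3d are shown because these copies of 1 secretory Rab stood on opposite sides, and that of Rab8b because it was among the most abundant members past the rule. Each is the 250 bases before the start in the RefSeq promoter table (GRCm38.p6), 5′ to 3′ on the gene's strand. Capitals mark GGGCGG, the GC box, and TATAAA, the TATA motif, searched on both strands (GGGCGG copies may overlap each other). Rab3b lies on the plus strand at chr4:108878820-108879069, Rab3d on the minus strand at chr9:21918184-21918433, and Rab8b on the minus strand at chr9:66919706-66919955.
Rab3b: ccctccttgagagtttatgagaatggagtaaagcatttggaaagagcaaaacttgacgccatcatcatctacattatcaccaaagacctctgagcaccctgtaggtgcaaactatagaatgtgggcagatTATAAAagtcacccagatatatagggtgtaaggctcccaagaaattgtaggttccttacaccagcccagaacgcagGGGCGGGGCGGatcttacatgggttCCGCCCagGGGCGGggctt
Rab3d: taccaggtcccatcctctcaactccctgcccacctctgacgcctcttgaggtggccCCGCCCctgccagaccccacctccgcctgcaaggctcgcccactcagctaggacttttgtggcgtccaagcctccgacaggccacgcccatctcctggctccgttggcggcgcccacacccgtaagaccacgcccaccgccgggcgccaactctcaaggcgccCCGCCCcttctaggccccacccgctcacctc
Rab8b: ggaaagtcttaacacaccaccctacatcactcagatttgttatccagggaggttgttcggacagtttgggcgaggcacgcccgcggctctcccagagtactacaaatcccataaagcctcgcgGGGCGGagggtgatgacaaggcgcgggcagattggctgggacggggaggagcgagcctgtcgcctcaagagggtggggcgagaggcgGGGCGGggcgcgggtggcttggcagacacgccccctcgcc

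The Rab3b window held 1 TATAAA, 4 GGGCGG and 6 CpG dinucleotides at 48.8% G+C. The Rab3d window held no TATAAA, 2 GGGCGG and 18 CpG at 69.2% G+C, and that of Rab8b no TATAAA, 2 GGGCGG and 20 CpG at 64.4%. The Rab3b start region was thus poorer in CpG than the family median of 15 and equal to the median of all promoters, 6. In all, 48 members had 60 promoters in the table. Of these 60, 66.7% held GGGCGG and 6.67% held TATAAA, against 32.7% and 12.4% of all 32851 promoters. Their median G+C was 60.2%, against 52.4% of all, and the shares were not matched for it. The purine-rich letters GAGGAA are a core bound by the macrophage factor PU.1. None of the windows of Rab19, Rab20, Rab3d and Rab8b held them (Rab7b has no entry in the table). Nor did any of the 5 windows of the fibroblast-side genes Rab3b, Rab23 and Rab34, so the sides did not differ in this. The letters were in 13.3% of the family's windows and in 23.2% of all. A match of letters is not a bound site, and no binding was measured here.

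Secretion and delivery to the plasma membrane held members far to either side. Of its 12 members, 10 reached 1 TPM and 7 reached 5 TPM, of which 1 was higher in fibroblasts and 2 in macrophages. These are 14.3% and 28.6%, against 14.3% and 8.77% of all expressed genes, and rest on 7 genes. Rab3b, of the Rab3 group that acts in regulated exocytosis, stood at 55.8 TPM in fibroblasts against 0.412 in macrophages, a 136-fold difference and the largest log2 ratio of any member at 5.33. Rab3d, the Rab3 form of exocrine and blood cell granules, had the opposite order at 6.07 TPM in fibroblasts against 29.9 in macrophages. Rab3a, the synaptic vesicle form, stood at 14.6 against 4.34 TPM and did not pass the rule. It is the sum of 2 rows, at 8.73 and 5.82 TPM in fibroblasts and at 4.34 and 0.000635 in macrophages, and its log2 ratio was 1.54 summed but 0.87 from the higher row alone. Rab3c was below 1 TPM in both.

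Added up, the Rab3 genes came to 76.7 TPM in fibroblasts against 34.7 in macrophages. The makeup of that sum differed more than its size: Rab3b held 72.8% of it in fibroblasts and 1.19% in macrophages, and Rab3d 7.92% and 86.3%. Rab3b is also a neuroendocrine gene, and 2 of 6 neuron markers were higher in the fibroblast library, Tubb3 at 20.8 TPM against 0.163 and Stmn2 at 39.7 against 0. The neuron markers Snap25, Elavl3 and Rbfox3 were listed at 0 in both libraries. Syt1 was at 0.296 TPM in fibroblasts and listed at 0 in macrophages. Whether neural cells had a part in the Rab3b value was not tested.

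The Rab8 pair carries cargo from the Golgi to the cell surface and the cilium. Rab8b stood at 26.5 TPM in fibroblasts against 124 in macrophages, a 4.66-fold difference, and Rab8a at 65.1 and 109.8 TPM. Rab8a made up 71.1% of their sum in fibroblasts, and Rab8b the larger part, 52.9%, in macrophages. Their close relatives lay the other way without passing the rule: Rab10, which delivers the insulin-regulated glucose transporter, at 97.6 against 72.3 TPM, and Rab13, a Rab of cell junctions, at 29.8 against 10.3.

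The Rab27 pair, which docks melanosomes and secretory lysosomes, was low in both cell types. Rab27a stood at 1.86 TPM in fibroblasts against 4.35 in macrophages. Rab27b stood at 4.64 and 0.0440 TPM, just under the 5 TPM the rule asks for, so that its 105-fold difference was not counted. Rab27b was 71.4% of the pair's sum in fibroblasts and Rab27a 99.0% in macrophages. Of the remaining secretory members, Rab37 was at 0.132 against 1.5 TPM and Rab26 below 1 in both. Among 7 melanocyte markers, Mitf alone reached 1 TPM, at 3.12 in fibroblasts and 12.8 in macrophages, and Dct was listed at 0 in both.

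**Figure D3:**
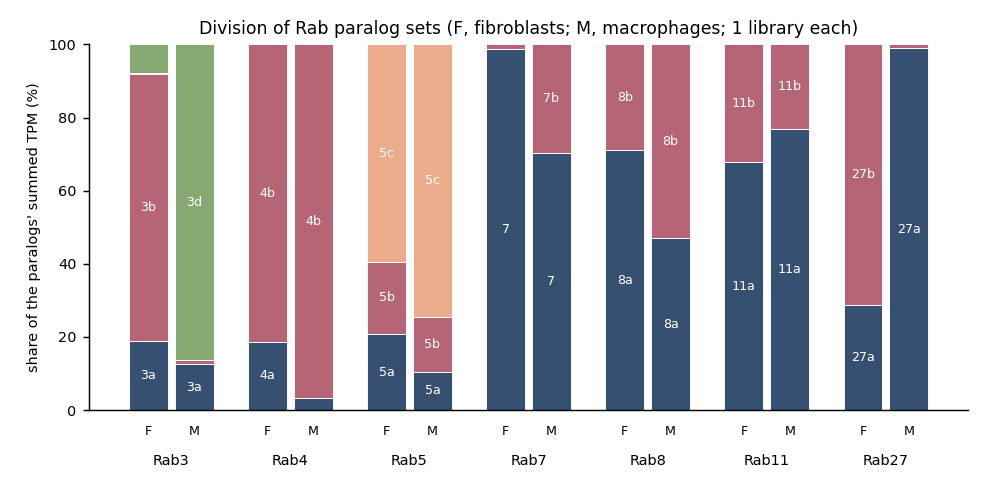
Share of each paralog in the summed TPM of its set (percent, stacked to 100), for 7 chosen Rab sets in fibroblasts (F) and macrophages (M), 1 library each. Labels inside the bars give the paralog, and unlabelled slivers are the paralog labelled, in the same colour, in the other bar of its set. Rab3c, at 0.284% and 0.0327%, is labelled in neither. The leading paralog differs between the cell types in the Rab3, Rab8 and Rab27 sets and is the same in the Rab4, Rab5, Rab7 and Rab11 sets. Of the sets not shown, only the low Rab39 set changed its leading paralog, from Rab39b (98.9%) in fibroblasts to Rab39 (100%) in macrophages.

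Rabs of late endosomes and lysosomes summed to 565 TPM in fibroblasts against 919 in macrophages, and Rab7b made up more of that gap than any other member. Rab7b, which is known in macrophages for traffic between endosomes and the Golgi and for handling of Toll-like receptors, stood at 5.02 TPM in fibroblasts against 209 in macrophages. The difference was 41.5-fold, with a log2 ratio of -5.12, the lowest of the family. Rab7, which brings late endosomes and phagosomes to fuse with lysosomes, stood at 363 and 496 TPM. Rab7b was 1.37% of the Rab7 pair's sum in fibroblasts and 29.6% in macrophages, and was the fifth-ranked Rab gene in the macrophage library.

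The remaining lysosomal members kept below the limit. Rab32, a Rab of lysosome-related organelles, was at 25.6 TPM in fibroblasts against 72.6 in macrophages. Its relative Rab38 was at 1.46 TPM in fibroblasts and listed at 0 in macrophages. Rab29, a Rab that recruits the kinase LRRK2, was at 23.1 and 35.7 TPM. The values of Rab9, which returns receptors from late endosomes to the Golgi, were 42.2 and 27.7 TPM, and those of Rab12 67.4 and 39.3. Rab24, linked to autophagy, was nearly equal at 36.3 and 36.7 TPM, although 54.4% of the 31-base words of its transcripts also occur in the overlapping gene Prelid1 on the other strand, which stood at 542 and 529.9 TPM. Rab42 was at 1.17 and 1.06 TPM, while Rab44 and Rab9b were below 1 in both. In this group 1 of 7 members at 5 TPM or more was thus past the limit (14.3%, against 23.1% of all expressed genes).

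Early endosome members had the same order in sum, 453 TPM in fibroblasts against 668 in macrophages. Rab5c was the highest of the 3 copies of Rab5, the Rab of endocytic vesicle fusion, at 187 and 345 TPM. Rab5a was at 65.2 and 48.4 TPM and Rab5b at 62.1 and 68.9. Rab5c held 59.5% of the Rab5 sum in fibroblasts and 74.6% in macrophages. Rab20, a Rab of phagosomes and endosomes, was at 6.76 TPM in fibroblasts against 34.3 in macrophages, a 5.07-fold difference. It was the 1 of 7 past the size rule (14.3%, against 23.1% of all expressed genes). Of the Rab20 transcript's 31-base words, 24.0% also occur in a noncoding gene on the opposite strand. Rab31, which works between Golgi and endosomes, was at 49.3 and 95.9 TPM. Rab21, which carries integrins, was at 51.2 and 46.3 TPM, and Rab22a at 31.4 and 29.7.

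Recycling Rabs, which send cargo back to the surface, were abundant in both cell types. Rab11a, the main Rab of recycling endosomes, stood at 295 TPM in fibroblasts against 364 in macrophages, and Rab11b at 139.8 and 110.3 TPM. Rab14 was at 108 and 165 TPM, and Rab35, which acts at the plasma membrane, at 59.2 and 70.1. The Rab4 pair, which serves fast recycling, was divided: Rab4a stood at 15.6 TPM in fibroblasts against 2.50 in macrophages, a 6.22-fold difference, whereas Rab4b stood at 67.9 and 74.9. Rab4b therefore kept 81.4% of the pair's sum in fibroblasts and 96.8% in macrophages. Rab4b shares 59.2% of its 31-base words with the overlapping gene Gm21983, listed at 0 and 0.206 TPM. Rab15 was at 1.48 and 8.39 TPM, with a log2 ratio of -1.92, just short of the limit. The epithelial forms Rab25 and Rab17 were below 1 TPM in both.

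Between the endoplasmic reticulum and the Golgi the main members differed little. Rab1a, needed for export from the endoplasmic reticulum, was at 267 TPM in both libraries. Rab1b was at 163 TPM in fibroblasts against 181 in macrophages, and Rab6a, a Golgi Rab, at 77.9 and 65.2. Rab2a, which also works at the Golgi, was at 158 and 85.1 TPM and its copy Rab2b at 16.1 and 7.05. The members past the limit were low: Rab30, a Golgi Rab, at 13.3 against 0.317 TPM, a 42.0-fold difference, and Rab19 at 0.0634 against 5.64 TPM, an 89.0-fold difference. Rab33b, which binds the autophagy protein ATG16L1, was at 18.6 and 7.83 TPM, and Rab43 at 15.3 and 14.1. Of the Rab43 words 74.8% also occur in the overlapping gene Gm45140, at 8.36 and 6.89 TPM. Of the Rab2b words 59.6% also occur in other genes, mostly in Gm43766 on the opposite strand. For Rab33b and Rab6a the shared part was 22.6% and 21.3%. The low copies Rab39b and Rab39 stood apart, Rab39b at 2.82 TPM in fibroblasts against 0 in macrophages, Rab39 at 0.0321 and 1.23. Rab36 was at 2.16 and 0.209 TPM, Rab6b at 2.06 and 1.28, and Rab33a below 1 in both.

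Of the 3 Rabs grouped here under the cilium and hedgehog signalling, 2 were higher in fibroblasts (66.7%, against 14.3% of all expressed genes). That share rests on 3 genes. Rab8a and Rab8b, which also serve the cilium and were placed with secretion, had the opposite order. Rab34, needed to form cilia and also found on macropinosomes, stood at 150.4 TPM in fibroblasts against 14.6 in macrophages, a 10.3-fold difference. It was the seventh-ranked Rab in fibroblasts and the most abundant of the 5 fibroblast-side members. Rab23, which restrains hedgehog signalling, stood at 41.1 and 6.30 TPM, a 6.53-fold difference. Rab28 was at 42.9 and 33.7 TPM. The 3 genes summed to 234 TPM in fibroblasts against 54.6 in macrophages. Other members act outside vesicle traffic in part: Rab18, of lipid droplets, was at 140.3 and 71.8 TPM, and the ubiquitin ligase adaptor Rab40c at 24.1 and 27.7. Its copy Rab40b was at 4.03 TPM in fibroblasts and listed at 0 in macrophages.

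The genes nearest to the limit were Rab4a and Rab23 inside it on the fibroblast side, with log2 ratios of 2.24 and 2.53, and Rab3a and Rab13 outside it, at 1.54 and 1.45. On the macrophage side they were Rab3d and Rab8b inside, at -2.13 and -2.18, and Rab15 and Rab32 outside, at -1.92 and -1.47. Rab20, at -2.18, was equally close to the limit. Adding 5 TPM in place of 1 left Rab3b, Rab34 and Rab23 on the fibroblast side and Rab7b and Rab8b on the macrophage side.

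By GENCODE M21 (GRCm38) the 10 genes are protein coding and lie on 7 chromosomes, so they form no single cluster. Rab7b lies on chromosome 1 at 131688695 to 131715439, plus strand, and Rab23 on the same chromosome at 33719887 to 33742564, plus strand. Rab3b lies on chromosome 4 at 108879063 to 108943324, plus strand, and Rab19 on chromosome 6 at 39381175 to 39390380, plus strand. Rab30 lies on chromosome 7 at 92741603 to 92844535, plus strand. Rab20 and Rab4a lie on chromosome 8, Rab20 at 11453518 to 11478710 on the minus strand and Rab4a at 123805985 to 123835287 on the plus strand. Rab3d and Rab8b lie on chromosome 9, both on the minus strand, at 21907491 to 21918192 and 66843664 to 66919687. Rab34 lies on chromosome 11 at 78188430 to 78192193, plus strand. Of the 10, Rab20 and Rab3b have exons that overlap a gene on the opposite strand, with 24.0% and 8.33% of their 31-base words shared with other genes. The other 8 share at most 6.17%, the value of Rab8b.

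The proteins that run the Rab cycle were compared by lists of known members. The chaperones and prenylation enzymes, which every Rab needs, showed no gene past the limit among 7 at 5 TPM or more. Of all expressed genes, 23.1% were past it. Gdi2, the common form of the chaperone that extracts Rabs from membranes, stood at 326 TPM in fibroblasts against 422 in macrophages. The GTPase-activating proteins, which end the active state, likewise showed none among 28. Their median log2 ratio was 0.29, near the 0.26 of all expressed genes. Over the 33 at 1 TPM or more it was 0.04, against 0.28 over all genes at that level. Of these 28, 22 differed by less than 2-fold (78.6%, against 61.3% of all expressed genes). Tbc1d13, which acts on Rab35, stood at 28.8 against 64.8 TPM, Tbc1d20, which acts on Rab1, at 61.3 against 64.6, and Tbc1d15, which acts on Rab7, at 61.5 against 53.2. Picked after the values were seen, the genes nearest to the limit were Tbc1d22a at 10.1 against 41.9 TPM and Tbc1d9 at 10.4 against 41.7.

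Of 33 exchange factor genes, whose products switch Rabs on, 4 were higher in fibroblasts and 5 in macrophages. These are 12.1% and 15.2%, or 27.3% together, against 14.3%, 8.77% and 23.1% of all expressed genes. St5, which encodes the Rab13 exchange factor DENND2B, stood at 58.9 TPM in fibroblasts against 0.455 in macrophages. Rab3ip and Rab3il1, which encode the related Rab8 exchange factors Rabin8 and GRAB, had opposite orders, Rab3ip at 27.3 against 4.55 TPM and Rab3il1 at 5.53 against 110.2. The Rab5 exchange factor gene Rin1 and its relative Rinl also lay on opposite sides, Rin1 at 33.1 against 0.607 TPM and Rinl at 0.785 against 42.2. On the macrophage side were also Dennd4b, acting on Rab10, at 5.42 against 27.9 TPM, Dennd1c, acting on Rab35, at 0 against 27.8, and Madd, acting on Rab3, at 1.98 against 25.7. Dennd2a, acting on Rab9, was on the fibroblast side at 11.5 against 1.07 TPM. Dennd1c, Madd and Dennd2a fell outside the rule for named genes and were added, after their values were seen, to complete the count.

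Of 32 effector genes at 5 TPM or more, 1 was higher in fibroblasts and 2 in macrophages. These are 3.1% and 6.25%, or 9.4% together, against 14.3%, 8.77% and 23.1% of all expressed genes. Sytl2 and Unc13d encode Rab27 effectors that dock secretory granules. Sytl2 stood at 17.7 TPM in fibroblasts against 0.0611 in macrophages, and Unc13d at 1.47 and 31.05 TPM. Plekhm1, a Rab7 effector of lysosome fusion, stood at 8.47 and 42.8 TPM. Sytl2 was higher in the library with more Rab27b, and Unc13d in that with more Rab27a. With 2 libraries each gene that differs must fall on 1 of these sides, so this shows no pairing. Both Rab27 genes were below 5 TPM in both libraries. Unc13d is also a neutrophil gene, and the neutrophil markers S100a8, S100a9 and Ngp stood at 157, 268 and 48.3 TPM in the macrophage library; their part in this value was not tested.

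**Figure D4:**
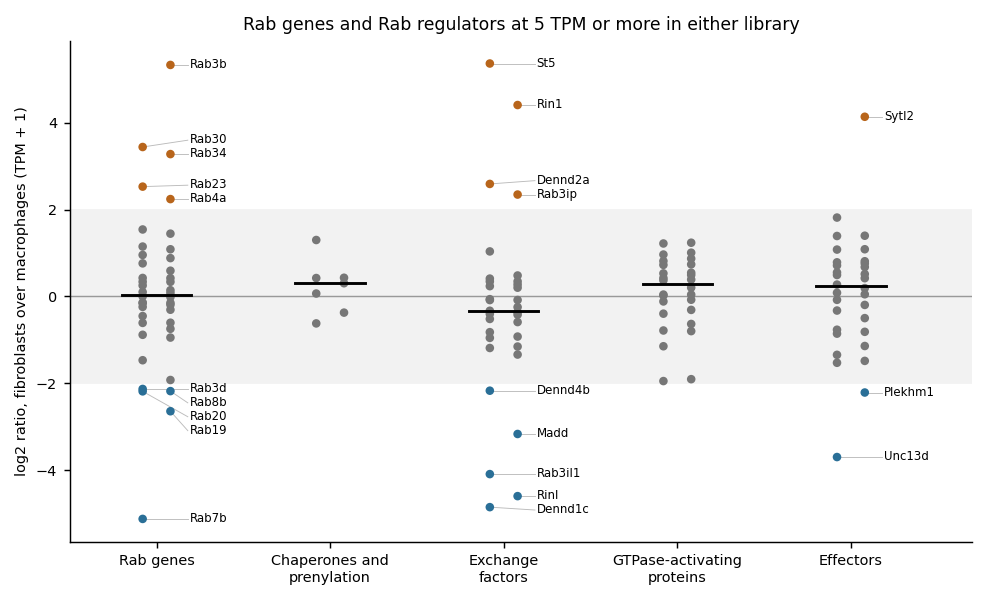
Log2 ratio of TPM plus 1, fibroblasts over macrophages, for Rab genes and 4 lists of their regulators at 5 TPM or more in either library, 1 point a gene, with the list's median as a bar and the band within 4-fold in grey. Coloured, named points are past the size rule: 10 Rab genes, 9 exchange factors, 3 effectors, and none of the chaperones or GTPase-activating proteins. Of all genes at 5 TPM or more, 23.1% were past it.

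Set beside other small GTPase families, chosen by symbol after the Rab values were seen, the Rabs had a share past the limit between those of the Arf and the Ras families. Of 23 Arf and Arl genes at 5 TPM or more, 1 was higher in fibroblasts and 2 in macrophages, 13.0% together. Of 17 Ras and Rap genes 4 and 2 were, 35.3% together. The Rab share was 23.8%, and that of all expressed genes 23.1%. These are counts in 1 pair of libraries, and whether the families differ was not tested.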

How the data were processed

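Libraries were made with a stranded mRNA kit and sequenced in paired reads of 76 bases, per the labels' protocols. The authors deposited 1 table of TPM, named as such here from its values, since no unit is given in it. kallisto 0.43.1 and GRCm38 were used per the submitters' processing notes. How transcripts were joined into genes, from which transcript set, and whether strand was used is not given in the sources used here. Rows, 34456 in number, were added by symbol (158 symbols stood on more than 1 row) to 34295 genes with pandas 2.3.3. The size rule uses a pseudocount of 1 TPM, a log2 ratio of 2 and a minimum of 5 TPM. It was tested on simulated data with an assumed spread and changes well away from the limit. That does not bear on calls near the limit. No test was run, with 1 library a group. TPM keep no depth, so no interval can be given.

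The members, role groups, regulator lists, motifs and the rule for named genes were chosen with earlier results of these data known. Named are members past the size rule, the highest 2 of each role group and library, paralogs at 1 TPM or more, and up to 3 regulators per direction and list; others complete a count. The share of 31-base words (the usual kallisto length) that a gene's transcripts have in common with other genes was taken from GENCODE M21, which may not be the transcript set used. Alternatives were other pseudocounts, minimums, a 2-fold limit, 2 scalings and the highest single row.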

Additional observations from a re-analysis of the deposited data

How the results depend on the processing

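The count of 5 Rab genes higher in fibroblasts and 5 in macrophages became 3 and 2 with a pseudocount of 5 TPM, which pulls low genes toward 0. With a 2-fold limit it became 9 and 7. Under the 7 remaining alternatives the counts ran from 5 to 7 and from 4 to 6. Under median-of-ratios scaling and a pseudocount of 0.1 TPM all 10 kept their call and Rab15 was added, and after rescaling that left out mitochondrial transcripts and, per library, the top 50 genes, Rab15, Rab27b and Rab40b were added. A minimum of 10 TPM dropped Rab19, and a minimum of 1 TPM or none added Rab27b and Rab40b. The median log2 ratio of 0.09 ran from -0.05 to 0.12 and was below 0 under both scalings. No called Rab gene changed direction, but this is no check of the directions. Pseudocounts, minimums and the 2-fold limit cannot reverse a ratio, and no called gene stood on several rows. The scalings moved the called log2 ratios by much less than the limit of 2. No paired analysis was possible because each group has 1 library. The unknown depth limits low genes most: a value of 0 is only the listed value.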

Other observations

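The LRRK kinases, of which LRRK1 and LRRK2 phosphorylate Rab proteins, were measured in both cell types. Lrrk1 stood at 27.5 TPM in fibroblasts against 11.0 in macrophages, and Lrrk2 at 11.9 and 4.98. Neither passed the size rule. The 5 Rab-like genes stayed within 2-fold, the highest being Rabl6 at 53.1 against 41.2 TPM and the cilium transport gene Ift22 at 31 against 48.8.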
